A study of Mus musculus with 8 samples.

Results

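The 10 genes described here encode proteins of the Z-disc and of the sites where sarcomeres are built and mended, and are known to be induced in muscle by stretch or fiber damage. They are *Ankrd1*, *Ankrd2*, *Csrp3*, *Xirp1*, *Xirp2*, *Nrap*, *Flnc*, *Myoz2*, *Mybph* and *Nexn*, chosen by gene symbol from the 27041 rows of a table of RNA-seq counts, and each was found once. RNA-seq had been performed on polyA RNA from skeletal muscle (the gastrocnemius, a fast calf muscle, per the methods of the study) of 9-week-old male C57BL/6J mice. LSD1skm-/- mice carried floxed alleles of *Kdm1a*, the gene of the histone demethylase LSD1, and an HSA-Cre transgene, whose human skeletal actin promoter drives Cre in myofibers, so that exon 1 was removed in fibers by design and the other cells of the muscle kept the gene. Control (Ctrl) mice were their floxed counterparts without Cre, so both groups shared the LSD1L2/L2 alleles, and the labels name no treatment for either. Counts were at hand for 4 Ctrl and 2 LSD1skm-/- libraries, and LSD1skm-/- replicates 3 and 4 were not analysed here.

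The Z-disc anchors the thin filaments of neighbouring sarcomeres through alpha-actinin, and it is also a place where the load on a fiber is sensed. Muscle ankyrin repeat proteins and muscle LIM protein shuttle between the sarcomere and the nucleus when a fiber is stretched. Filamin C and the Xin proteins gather at small lesions of myofibrils within minutes of injury, and N-RAP, nexilin and calsarcin 1 take part in the assembly or the strength of the disc.

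Depth was similar among libraries, with 30654828 to 41278769 counts each, and testing was restricted to the 11364 genes that averaged more than 50 counts per library, all 10 genes among them (mean counts from 276.3 for *Ankrd1* to 75180 for *Xirp2*). Levels are given as CPM, the counts brought to a common library size after TMM scaling, which equalizes the bulk of genes between libraries. The targeted gene checked the labels. Ctrl replicates 1 to 3 held 22.95, 21.96 and 28.06 CPM of *Kdm1a*, against 2.962 and 3.483 CPM in LSD1skm-/- replicates 1 and 2 and 3.658 CPM in the library labelled Ctrl replicate 4. That library therefore went against its label, and the fold changes of the 10 genes are given by the labels and again without it. Fast-fiber markers dominated all libraries, with 35250 to 57080 CPM for *Myh4*, the IIb myosin heavy chain. Of 7 cardiac markers listed, 5 were among the genes counted and 1 passed the count limit, with at most 4.116 CPM summed over these 5.

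The promoters of these genes can be read beside their levels. RefSeq gave a promoter window of 300 bases, with 250 bases before the transcription start, for 8 of the 10 genes, and none for *Xirp1* and *Nexn*. *Csrp3* and *Flnc* each had 2 windows, from separate start sites, of which 1 is shown. Windows of 5 genes are shown, since they carry the motifs compared below, all on GRCm38.p6 and written 5′ to 3′ on the strand of the gene. Capitals mark the MCAT core GGAATG (the TEAD element of muscle genes, CATTCC on the other strand) in *Ankrd1* and *Flnc*, the glucocorticoid receptor hexamer TGTTCT in *Csrp3*, the NRF1 core CGCATGCG in *Nrap* and a MEF2 site in *Myoz2*. The windows lie at chr19:36119795-36120094 on the minus strand for *Ankrd1*, chr7:48848002-48848301 on the minus strand for *Csrp3*, chr19:56389989-56390288 on the minus strand for *Nrap*, chr6:29433006-29433305 on the plus strand for *Flnc* and chr3:123034938-123035237 on the minus strand for *Myoz2*.
Ankrd1: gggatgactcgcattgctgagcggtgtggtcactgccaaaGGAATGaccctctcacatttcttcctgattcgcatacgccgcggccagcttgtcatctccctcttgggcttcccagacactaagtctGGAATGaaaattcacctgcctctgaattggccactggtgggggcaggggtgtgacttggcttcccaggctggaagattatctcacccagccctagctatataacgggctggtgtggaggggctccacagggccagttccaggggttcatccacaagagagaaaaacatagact
Csrp3: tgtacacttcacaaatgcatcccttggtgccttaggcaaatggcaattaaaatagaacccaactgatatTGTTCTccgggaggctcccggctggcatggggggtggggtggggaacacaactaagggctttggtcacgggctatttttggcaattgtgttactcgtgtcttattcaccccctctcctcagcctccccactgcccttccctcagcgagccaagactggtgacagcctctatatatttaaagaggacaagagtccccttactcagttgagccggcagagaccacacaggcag
Nrap: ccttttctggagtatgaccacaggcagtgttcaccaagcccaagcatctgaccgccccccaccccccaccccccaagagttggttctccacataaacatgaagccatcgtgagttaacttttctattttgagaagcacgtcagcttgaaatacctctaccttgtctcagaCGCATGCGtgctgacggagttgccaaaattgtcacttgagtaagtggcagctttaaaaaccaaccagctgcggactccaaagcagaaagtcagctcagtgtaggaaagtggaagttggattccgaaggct
Flnc: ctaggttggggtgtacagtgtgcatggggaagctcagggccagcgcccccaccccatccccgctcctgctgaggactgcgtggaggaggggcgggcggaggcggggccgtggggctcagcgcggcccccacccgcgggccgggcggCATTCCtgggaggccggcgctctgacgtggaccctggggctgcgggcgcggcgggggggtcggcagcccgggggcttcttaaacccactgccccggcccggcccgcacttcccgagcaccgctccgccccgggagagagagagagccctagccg
Myoz2: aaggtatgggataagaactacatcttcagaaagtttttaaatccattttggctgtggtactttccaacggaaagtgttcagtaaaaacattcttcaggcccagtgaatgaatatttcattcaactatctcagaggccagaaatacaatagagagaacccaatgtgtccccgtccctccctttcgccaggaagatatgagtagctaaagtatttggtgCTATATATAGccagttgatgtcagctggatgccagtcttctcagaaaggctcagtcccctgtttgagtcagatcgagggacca

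Both strands were searched for each motif, except TATAAA, which was searched on the sense strand. The MCAT core was present in the windows of *Ankrd1* (where it occurred 2 times, from -210 to -205 and from -123 to -118 relative to the start), *Flnc* (on the other strand, from -104 to -99 in the window shown) and *Mybph* (from -73 to -68), and in 14.7% of 32851 promoter windows of all genes. The hexamer TGTTCT was present in *Csrp3* alone of the 8 genes (from -181 to -176) and in 19.0% of all windows. The NRF1 core was present in *Nrap* alone (from -80 to -73) and in 1.87% of all windows. MEF2 sites stood in the windows of *Myoz2* (from -33 to -24) and *Xirp2* (from -74 to -65), against 3.19% of all windows. TATAAA was present in *Ankrd2* (from -29 to -24) and in 8.32% of all windows, a CArG box in 0 of the 8 genes and in 1.63% of all windows, and the short E-box CANNTG in 7 of the 8 genes and in 72.3% of all windows. These are matches of letters within the windows, and binding was not measured at them here.

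The 10 genes were expressed at very different levels. Divided by the kilobases of merged exons (GENCODE vM21, GRCm38), so that genes of different length can be compared, the mean levels of Ctrl replicates 1 to 3 ran from 254 ± 43.0 CPM per kb for *Nrap* through 205 ± 17.7 for *Xirp2*, 174 ± 36.2 for *Ankrd2*, 112 ± 8.69 for *Nexn*, 98.6 ± 15.7 for *Flnc*, 54.2 ± 14.3 for *Mybph*, 43.7 ± 9.93 for *Myoz2*, 36.2 ± 11.2 for *Csrp3* and 35.5 ± 6.64 for *Xirp1* to 2.42 ± 0.971 for *Ankrd1* (SD, n = 3). *Nrap* ranked 107 and *Xirp1* 834 among 11225 genes with a length, and *Ankrd1* ranked 6404. Over the 4 Ctrl libraries, neighbours in this order overlapped except at 3 steps, from *Ankrd2* to *Nexn*, from *Flnc* to *Mybph* and from *Xirp1* to *Ankrd1*. Thus 9 of the 10 genes were abundant transcripts of control muscle, and *Ankrd1* was near the middle of all genes with a length.

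In LSD1skm-/- muscle all 10 genes had a lower mean than in Ctrl muscle. The median log2 fold change over the 10 genes was -0.60 with all 6 libraries and -0.64 without the library labelled Ctrl replicate 4, against -0.008 and -0.006 over all genes tested. By the labels edgeR's quasi-likelihood test called no single gene, with 0 of 11364 genes at an adjusted p under 0.05 (0% of genes, 0 of the 10). It gave 1011 genes an unadjusted p under 0.05. DESeq2 called 46 of 11351 genes that it gave an adjusted p (0.405% of them, 0.247% with a lower level), 1 of the 10 among them. In edgeR's test, unadjusted p fell under 0.05 for 5 of the 10 (*Ankrd2*, *Csrp3*, *Xirp1*, *Nrap* and *Flnc*, all lower), against 3.88% of genes tested that did so with a lower level. This count was 3 without Ctrl replicate 1, where 586 of 11364 genes passed in either direction, 46.2% of them lower. With LSD1skm-/- replicate 1 or 2 left out, which leaves 1 library in that group, the median log2 fold change of the 10 genes was -0.57 or -0.60. In the same 5, both LSD1skm-/- libraries lay below every Ctrl library, against 8.02% of genes, and a fold change below 0 was seen in 10 of 10 against 51.4% of genes.

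Without the library labelled Ctrl replicate 4, 612 genes had an adjusted p under 0.05 (5.39% of genes) and 1 of the 10, *Flnc*, was among them. Of genes tested, 1.02% were called with a lower level. The 612 genes became 321 without Ctrl replicate 1 as well, 245 without LSD1skm-/- replicate 1 and 143 without LSD1skm-/- replicate 2, and 0 of the 10 were called in those fits or without Ctrl replicate 3, and 3 of the 10 (*Ankrd2*, *Nrap* and *Flnc*) without Ctrl replicate 2. Unadjusted p was under 0.05 for 8 of the 10, all but *Ankrd1* and *Mybph*, against 7.72% of genes with a lower level. With LSD1skm-/- replicate 1 left out as well, the median log2 fold change of the 10 was -0.59, and that of *Mybph* was -0.06. Both LSD1skm-/- libraries were below Ctrl replicates 1 to 3 in 7 of the 10 (*Ankrd2*, *Csrp3*, *Xirp1*, *Xirp2*, *Nrap*, *Flnc* and *Nexn*), against 17.3% of genes, and a fold change below 0 was seen in 10 of 10 against 51.0%. DESeq2 gave an adjusted p under 0.05 to those same 7 genes in this comparison, all lower. It called 9.29% of genes in either direction and 3.06% with a lower level. By the labels it called *Xirp1* alone of the 10 (adjusted p = 0.0473). The 10 genes were chosen with results of these data known and some share fiber types and regulators, so these counts describe the list and carry no p-value of their own. The labels do not say that each library came from its own mouse, so p-values measure the spread between these libraries, which may be technical.

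**Figure D1:**
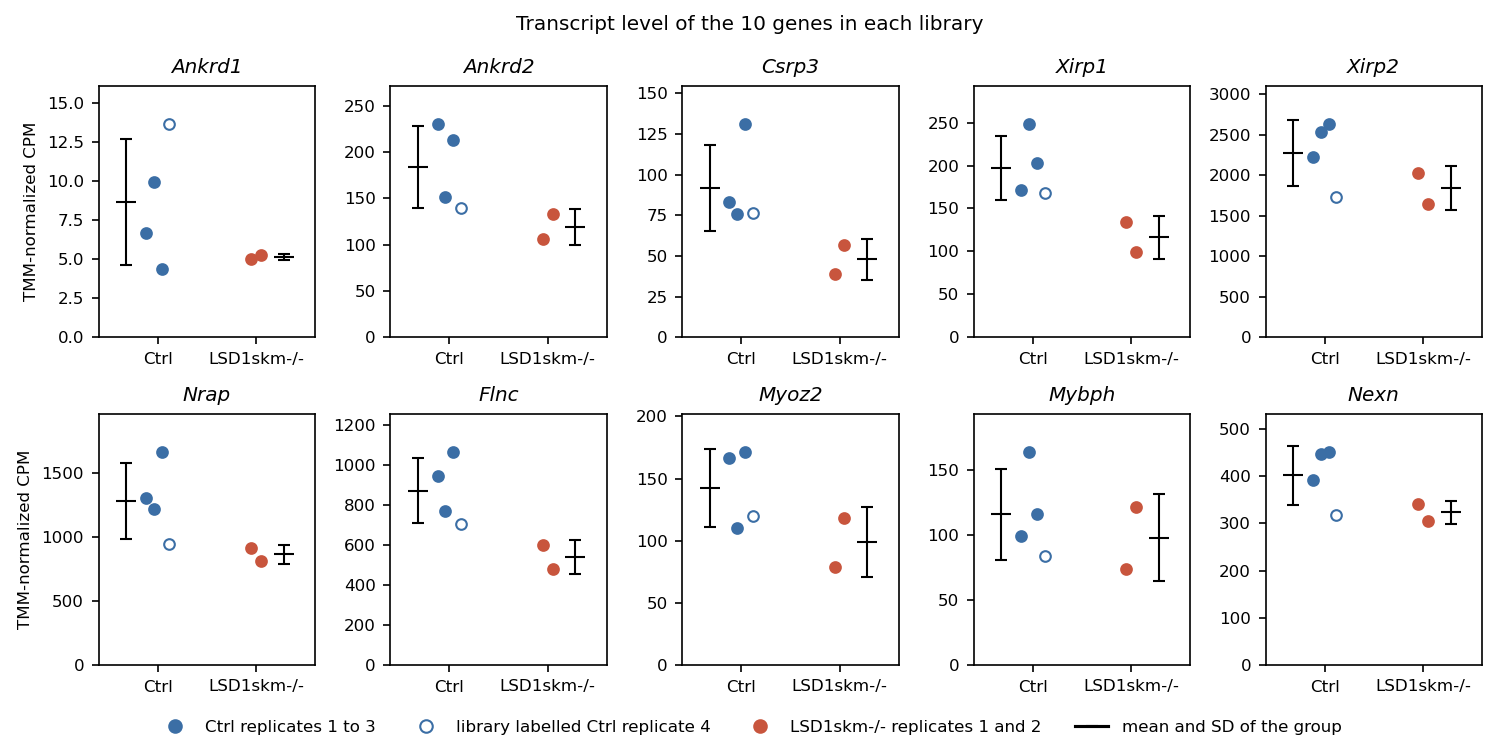
Transcript level of each of the 10 genes in every library, as TMM-normalized CPM on a linear axis that starts at 0, with Ctrl replicates 1 to 3 as filled blue points, the library labelled Ctrl replicate 4 as an open point, LSD1skm-/- libraries in red, and the mean and SD of each labelled group as a cross with bars. Both red points lie below every blue point, open ones included, for *Ankrd2*, *Csrp3*, *Xirp1*, *Nrap* and *Flnc*.

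**Figure D2:**
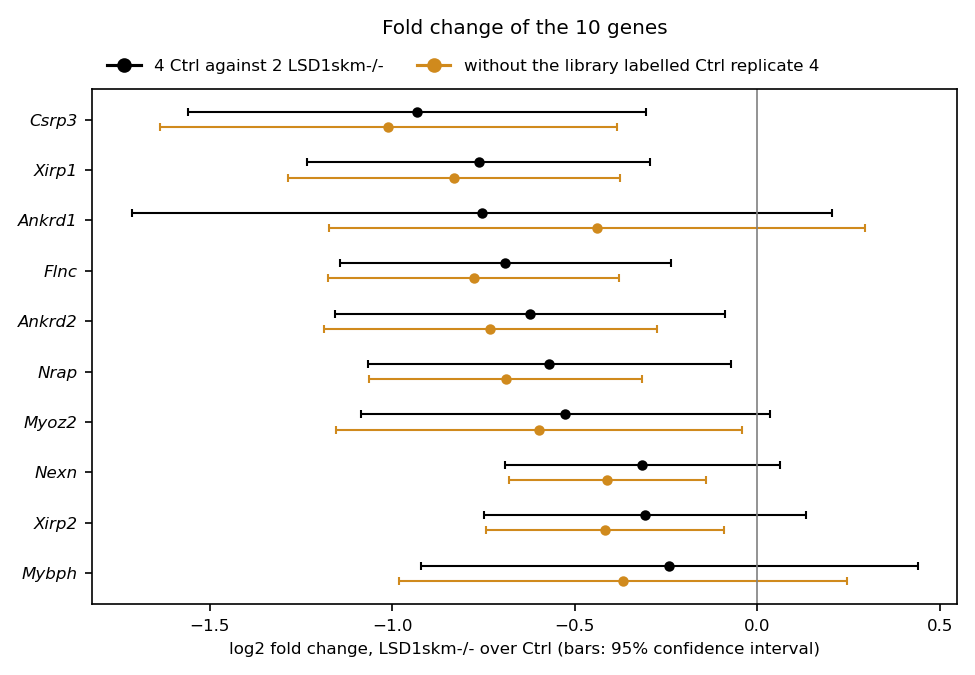
Log2 fold change of each gene, LSD1skm-/- over Ctrl, with its 95% confidence interval from edgeR's quasi-likelihood fit, in black for 4 against 2 libraries and in orange without the library labelled Ctrl replicate 4. All points lie below 0, from -0.93 for *Csrp3* to -0.24 for *Mybph* by the labels, and 5 black and 8 orange intervals do not reach 0.

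The muscle ankyrin repeat proteins bind titin and, in the nucleus, transcription factors. *Ankrd2*, the member most typical of slow and stretched fibers (chr19:42036000-42045110, plus strand, 9 exons), stood at 229.8, 151.5, 212.8 and 139.8 CPM in Ctrl replicates 1 to 4 and at 105.6 and 132.6 CPM in LSD1skm-/- replicates 1 and 2. The LSD1skm-/- libraries were the lowest, though the upper one lay close to the library labelled Ctrl replicate 4. The log2 fold change was -0.62 ± 0.23 (SE, 95% CI -1.16 to -0.089, adjusted p = 0.557) by the labels and -0.73 ± 0.20 (adjusted p = 0.0837) without that library, a level 35.1% and 39.8% lower.

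*Ankrd1*, also called cardiac ankyrin repeat protein and a common marker of injured or overloaded muscle (chr19:36111961-36120099, minus strand, 9 exons), behaved in another way among the libraries. It stood at 6.655, 9.95, 4.377 and 13.65 CPM in Ctrl replicates 1 to 4 and at 5.01 and 5.264 CPM in LSD1skm-/- muscle. The highest and the lowest value were both from Ctrl libraries, and the LSD1skm-/- values lay inside their range. The fold change of -0.76 ± 0.41 on the log2 scale (95% CI -1.72 to 0.204, adjusted p = 0.585) moved to -0.44 ± 0.31 (adjusted p = 0.489) without the library labelled Ctrl replicate 4, which held the highest value and was at 195% of the mean of Ctrl replicates 1 to 3. *Ankrd23*, the remaining muscle ankyrin repeat gene, was at 81.89 to 112.4 CPM in Ctrl and at 106.8 and 96.11 CPM in LSD1skm-/- libraries, within the Ctrl range (log2 fold change 0.13, 95% CI -0.224 to 0.479, adjusted p = 0.792, and 0.074 with an adjusted p of 0.821 without the library labelled Ctrl replicate 4). Within a library, the log2 ratio of *Ankrd2* to *Ankrd23* was 0.74 lower in LSD1skm-/- muscle, from values of 1.49, 0.43, 1.16 and 0.77 in Ctrl and -0.02 and 0.46 in LSD1skm-/- libraries (exact permutation p = 0.2, 0.3 after adjustment over 9 ratios), and the groups overlapped. The difference was -0.80 without the library labelled Ctrl replicate 4 (exact permutation p = 0.3).

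*Csrp3*, muscle LIM protein, links alpha-actinin and telethonin at the disc and serves as a cofactor of myogenic factors in the nucleus (chr7:48830398-48848033, minus strand, 6 exons). It had the lowest fold change of the 10, with 82.96, 76.0, 130.9 and 76.33 CPM in Ctrl replicates 1 to 4 and 38.91 and 56.89 CPM in LSD1skm-/- libraries. Ctrl replicate 3 stood apart at the top, the other Ctrl libraries were close together, and both LSD1skm-/- libraries were below all of them. *Csrp3* differed by -0.93 ± 0.27 on the log2 scale (95% CI -1.56 to -0.306, adjusted p = 0.557) by the labels and -1.01 ± 0.27 (adjusted p = 0.0829) without the library labelled Ctrl replicate 4. Without Ctrl replicate 3 it was -0.71 (unadjusted p = 0.00497), and with Ctrl replicates 3 and 4 both left out it was -0.73 (adjusted p = 0.0819). The other cysteine-rich LIM genes, which are not specific to striated muscle, were low, at 13.55 to 23.34 CPM for *Csrp1* and 1.294 to 3.35 CPM for *Csrp2* over all libraries.

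*Xirp1* and *Xirp2* encode the Xin repeat proteins, which bind actin filaments and filamin C and are used as marks of myofibril damage. *Xirp1* (chr9:120013755-120023598, minus strand, 3 exons with 3396 coding bases) stood at 170.9, 248.0, 202.4 and 168.0 CPM in Ctrl replicates 1 to 4 and at 133.8 and 98.71 CPM in LSD1skm-/- libraries, and the groups did not overlap. Its log2 fold change was -0.76 ± 0.20 (95% CI -1.23 to -0.295, adjusted p = 0.557) by the labels, and -0.83 ± 0.19 (adjusted p = 0.0554) without the library labelled Ctrl replicate 4.

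*Xirp2* (chr2:67446002-67526614, plus strand, 9 exons with 11352 coding bases) was the most abundant of the 10 in CPM and had a smaller difference. Its levels of 2220, 2528, 2626 and 1724 CPM in Ctrl replicates 1 to 4 and 2030 and 1645 CPM in LSD1skm-/- libraries overlapped by the labels, where the library labelled Ctrl replicate 4 lay between the LSD1skm-/- libraries. On the log2 scale the difference was -0.31 ± 0.19 (95% CI -0.75 to 0.134, adjusted p = 0.623), and -0.42 ± 0.14 (adjusted p = 0.148) without that library. The log2 ratio of *Xirp1* to *Xirp2* was -3.70, -3.35, -3.70 and -3.36 over the Ctrl libraries, against -3.92 and -4.06 for LSD1skm-/- replicates 1 and 2. It was lower in both LSD1skm-/- libraries than in every Ctrl library, by 0.46 on the log2 scale (exact permutation p = 0.133, 0.299 after adjustment), where 4 against 2 libraries allow no p below 0.067. It was lower by 0.41 without the library labelled Ctrl replicate 4 (exact permutation p = 0.1, the smallest that 3 against 2 libraries allow).

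*Nrap* encodes N-RAP, a nebulin-related LIM protein of myofibril precursors and of the myotendinous junction (chr19:56320035-56390037, minus strand, 42 exons). It stood at 1305, 1220, 1666 and 948.4 CPM in Ctrl replicates 1 to 4 and at 918.4 and 812.7 CPM in LSD1skm-/- libraries. Both were below the Ctrl libraries, and the gap to the library labelled Ctrl replicate 4 was narrow. Its fold change was -0.57 ± 0.21 on the log2 scale (95% CI -1.07 to -0.073, adjusted p = 0.557), and -0.69 ± 0.16 (adjusted p = 0.0547) without that library, so the level was 32.6% lower by the labels. *Nrap* shares 376 exonic bases with *Habp2* and Gm17197 on the opposite strand, and the strand setting of the counting is not given in the sources used here. *Habp2* was at 0.2206 to 0.6957 CPM in all libraries.

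*Flnc* encodes filamin C, the actin crosslinker of the Z-disc and costamere that is recruited to lesions (chr6:29433256-29461883, plus strand, 48 exons). It stood at 944.9, 772.0, 1065 and 705.0 CPM in Ctrl replicates 1 to 4 and at 600.4 and 479.5 CPM in LSD1skm-/- libraries, with no overlap. The log2 fold change was -0.69 ± 0.20 (95% CI -1.14 to -0.238, adjusted p = 0.557) by the labels. Without the library labelled Ctrl replicate 4, *Flnc* fell by 0.78 ± 0.17 on the log2 scale (95% CI -1.18 to -0.378, adjusted p = 0.0462), which is 41.7% lower. This call was near the threshold and was lost when a further library was left out, with an adjusted p of 0.116 without Ctrl replicate 1, 0.0773 without Ctrl replicate 3, 0.084 without LSD1skm-/- replicate 1 and 0.265 without LSD1skm-/- replicate 2, but not without Ctrl replicate 2 (0.0272). *Flna*, the gene of filamin A, which is found in most cell types, was far lower, at 27.84 to 52.92 CPM, with its lowest levels in the LSD1skm-/- libraries (log2 fold change -0.43 with an adjusted p of 0.559 by the labels, and -0.25 with an adjusted p of 0.242 without the library labelled Ctrl replicate 4).

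*Myoz2* encodes calsarcin 1, a Z-disc protein of slow and cardiac muscle that binds calcineurin and alpha-actinin (chr3:123006206-123035015, minus strand, 6 exons). It stood at 166.8, 110.3, 171.3 and 120.1 CPM in Ctrl replicates 1 to 4 and at 78.77 and 118.5 CPM in LSD1skm-/- libraries. LSD1skm-/- replicate 1 was the lowest and replicate 2 lay among the Ctrl libraries. The log2 fold change was -0.53 ± 0.24 (95% CI -1.09 to 0.033, adjusted p = 0.558), and -0.60 ± 0.24 (adjusted p = 0.217) without the library labelled Ctrl replicate 4. The fast-fiber relative *Myoz1*, at 2554 to 3374 CPM in Ctrl and at 2581 and 2928 CPM in LSD1skm-/- libraries, differed by -0.17 on the log2 scale by the labels (adjusted p = 0.717) and by -0.25 without that library (adjusted p = 0.29).

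*Nexn* encodes nexilin, an actin-binding protein that helps the disc withstand load (chr3:152236982-152266350, minus strand, 13 exons). It was the steadiest of the 10 over Ctrl replicates 1 to 3, with a coefficient of variation of 7.73% against 40.1% for *Ankrd1*. Its levels were 391.9, 447.9, 451.0 and 317.1 CPM in Ctrl replicates 1 to 4 and 340.5 and 305.4 CPM in LSD1skm-/- libraries, which lay below Ctrl replicates 1 to 3 and on either side of the library labelled Ctrl replicate 4. *Nexn* shares 287 exonic bases with Gm43185 on the same strand, which hold 5.89% of its 50-base stretches. *Nexn* differed by -0.32 ± 0.16 on the log2 scale (95% CI -0.69 to 0.061, adjusted p = 0.571), and -0.41 ± 0.12 (adjusted p = 0.0956) without that library.

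*Mybph* encodes myosin-binding protein H of the thick filament, often raised in stressed or denervated muscle (chr1:134193448-134201232, plus strand, 10 exons). Its levels of 99.02, 163.5, 116.1 and 83.63 CPM in Ctrl replicates 1 to 4 and 74.04 and 121.3 CPM in LSD1skm-/- libraries overlapped widely. The difference was -0.24 ± 0.29 on the log2 scale (95% CI -0.92 to 0.439, adjusted p = 0.796), and -0.37 ± 0.26 (adjusted p = 0.489) without the library labelled Ctrl replicate 4. *Mybph* shares 1162 exonic bases with *Adora1* on the opposite strand, which holds 43.9% of its 50-base stretches, so its level is uncertain if strand was not used. *Adora1* itself was at 0.5797 to 3.217 CPM. The direction for *Mybph* rested on LSD1skm-/- replicate 1, since without it the log2 fold change was 0.07 (unadjusted p = 0.852).

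The library labelled Ctrl replicate 4 can also be read against Ctrl replicates 1 to 3 without any test, since it is a single library. It was at 66.3% (*Mybph*) to 81.1% (*Xirp1*) of their mean in the genes other than *Ankrd1*, and above that mean in *Ankrd1*. In *Csrp3* and *Myoz2* it lay inside their range, near the lower end, and in the remaining genes outside it. The share of all genes tested in which this library lay outside that range was not counted, so its place in the 10 genes is description alone. LSD1skm-/- replicate 1 stood at 40.3% (*Csrp3*) to 82.6% (*Xirp2*) of the same mean and LSD1skm-/- replicate 2 at 47.7% (*Xirp1*) to 96.1% (*Mybph*). The LSD1skm-/- libraries were not ordered alike across genes, since replicate 1 was the lowest library for *Ankrd2*, *Csrp3*, *Myoz2* and *Mybph*, and replicate 2 for *Xirp1*, *Xirp2*, *Nrap*, *Flnc* and *Nexn*. Among Ctrl libraries, replicate 3 held the highest value for 6 of the 10 genes.

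**Figure D3:**
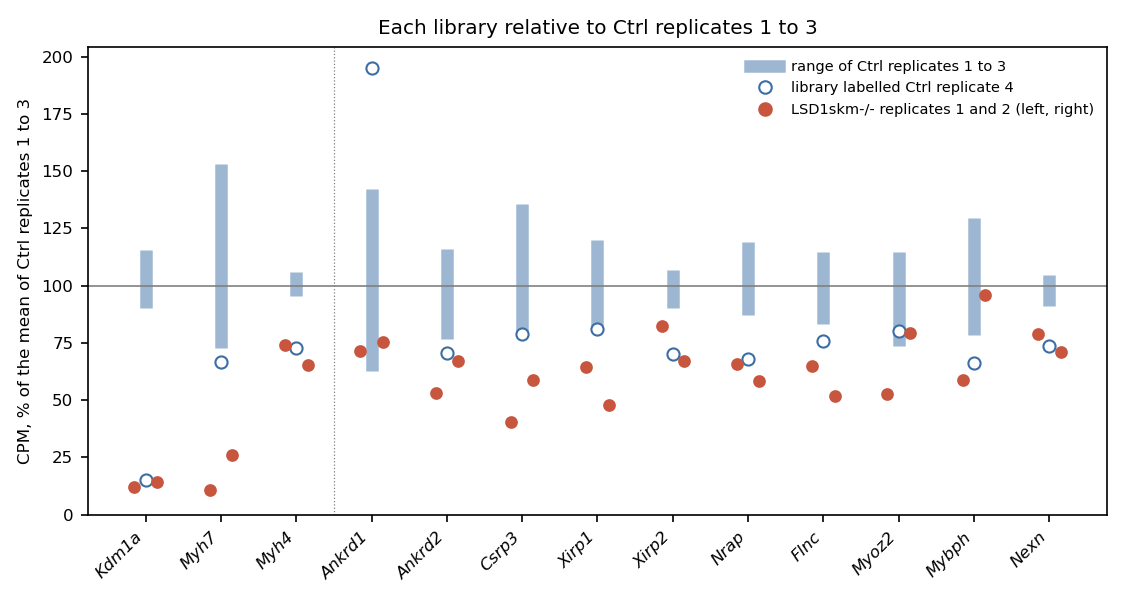
CPM of the 10 genes, and of *Kdm1a*, *Myh7* and *Myh4* to the left of the dotted line, in each library as a percentage of the mean of Ctrl replicates 1 to 3 (100, grey line). Blue bars span Ctrl replicates 1 to 3, open points are the library labelled Ctrl replicate 4 and red points are LSD1skm-/- replicates 1 (left) and 2 (right). The open point lies with the red points for *Kdm1a* and far above them for *Ankrd1* at 195%.

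Fiber type markers differed beside the 10 genes. Of 9 slow-fiber genes tested, 8 were lower, 7 of them with an unadjusted p under 0.05, and the median log2 fold change of the 9 was -1.52 by the labels and -1.54 without the library labelled Ctrl replicate 4, where edgeR called 2 lower. *Casq2* was higher, by 0.38 on the log2 scale by the labels (adjusted p = 0.644) and by 0.57 without that library (unadjusted p = 0.0182, adjusted p = 0.146). *Myh7*, the slow myosin heavy chain, stood at 247.3, 242.1, 509.7 and 221.6 CPM in Ctrl replicates 1 to 4 and at 35.32 and 86.51 CPM in LSD1skm-/- libraries, and it fell by 2.45 on the log2 scale without that library (adjusted p = 0.0313). *Tpm3*, the slow tropomyosin, fell by 1.85 in the same comparison (adjusted p = 0.0363). By the labels the log2 fold changes were -2.32 for *Myh7* and -1.81 for *Tpm3*, each with an edgeR adjusted p of 0.557. DESeq2 called both lower by the labels (adjusted p = 0.0403 and 7.72e-05), and also *Atp2a2* of the same list (log2 fold change -1.02, adjusted p = 0.0107). Ctrl replicate 3 was highest for *Myh7* as for *Csrp3*, *Xirp2*, *Nrap*, *Flnc*, *Myoz2* and *Nexn*, and LSD1skm-/- replicate 1 was lowest for *Myh7* as for *Ankrd2*, *Csrp3*, *Myoz2* and *Mybph*. In a whole muscle, fewer slow fibers and less slow-fiber RNA per fiber cannot be told apart.

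Set against *Myh7* within each library, the 3 genes best known from slow fibers had higher ratios in LSD1skm-/- muscle, since *Myh7* itself was lower by more. *Myh7* had the lowest fold change of the 9 slow-fiber genes (-2.32 on the log2 scale by the labels), and the ratios were added after values were seen. A gene that fell less than *Myh7* gives a higher ratio, so the p-values of these ratios are no test of the 3 genes. The log2 ratio of *Csrp3* to *Myh7* was -1.58, -1.67, -1.96 and -1.54 over the Ctrl libraries, against 0.14 and -0.60 for LSD1skm-/- libraries. The mean difference was 1.45 for *Csrp3*, 1.85 for *Myoz2* and 1.78 for *Ankrd2*, each with LSD1skm-/- libraries above every Ctrl library (exact permutation p = 0.067, the smallest that 4 against 2 libraries allow, and 0.2 after adjustment over 9 ratios). With Ctrl replicate 4 left out the differences were 1.5, 1.90 and 1.78 in the same order (exact permutation p = 0.1 for each, the smallest that 3 against 2 libraries allow). The part of the slow-fiber genes in the lower levels of the 10 genes was not tested. Fast-fiber genes had a median log2 fold change of 0.003 over 9 genes by the labels and of -0.035 without the library labelled Ctrl replicate 4, with none called in either comparison by edgeR's adjusted p and 1 at an unadjusted p under 0.05 in each. That gene was *Myh4*, at 52910, 51340, 57080 and 39180 CPM in Ctrl replicates 1 to 4 and at 39800 and 35250 CPM in LSD1skm-/- libraries (log2 fold changes -0.42 and -0.52). DESeq2 called *Myh4* lower without the library labelled Ctrl replicate 4 (adjusted p = 0.000182) and not by the labels (0.344).

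Other sarcomere genes had smaller median differences, which were not tested against that of the 10 genes. Of 22 other Z-disc genes tested, 19 were lower, with a median log2 fold change of -0.17 by the labels and -0.25 without the library labelled Ctrl replicate 4, and 5 had an unadjusted p under 0.05 in each comparison. Without that library edgeR called 2 of them lower, *Pdlim3* and *Smpx*. DESeq2 called these 2 lower in that comparison, and also *Synpo2* (adjusted p = 0.000763) and *Fhl1* (0.0293), which edgeR did not call. *Pdlim3*, a PDZ and LIM protein that binds alpha-actinin, stood at 453.9, 498.5, 520.2 and 426.7 CPM in Ctrl replicates 1 to 4 and at 332.8 and 363.1 CPM in LSD1skm-/- libraries (adjusted p = 0.0475), and *Smpx*, a small protein of the costamere known to respond to stretch, at 345.9, 368.5, 337.0, 270.0, 244.0 and 266.5 CPM in the same order (adjusted p = 0.0479). By the labels their log2 fold changes were -0.45 and -0.37, each with an adjusted p of 0.557. *Actn2*, the alpha-actinin that defines the disc, differed by 0.09 on the log2 scale (adjusted p = 0.848), and *Tcap*, telethonin, by -0.15 (adjusted p = 0.842). They were 0.115 and -0.27 without the library labelled Ctrl replicate 4 (adjusted p = 0.717 and 0.467). Among 12 genes of the M-band, thick filament and filament ends, 9 were lower (medians -0.18 and -0.22) and none was called by edgeR's adjusted p, with 0 at an unadjusted p under 0.05 by the labels and 3 without the library labelled Ctrl replicate 4. The lowest of the 12 was *Mybpc1*, slow myosin-binding protein C, with a log2 fold change of -0.61 (edgeR adjusted p = 0.0613) without that library. DESeq2 called *Mybpc1* and *Trim54* lower in that comparison (adjusted p = 0.00139 and 0.0316).

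Genes that commonly accompany the 10 in damage or overload were divided between higher and lower levels. Of 17 chaperone and membrane repair genes 9 were lower and 8 higher in both comparisons, with medians of -0.026 and -0.006, and none was called by edgeR's adjusted p, with 0 and 2 at an unadjusted p under 0.05. *Bag3*, the cochaperone that clears damaged filamin, was at 159.6 to 171.6 CPM in Ctrl and at 164.4 and 160.2 CPM in LSD1skm-/- libraries. Of 18 stretch transduction genes (YAP and TEAD, SRF cofactors, integrin-linked kinases and their targets) 10 were lower by the labels and 8 without the library labelled Ctrl replicate 4, with medians of -0.035 and 0.02. An unadjusted p under 0.05 was found for 1 lower gene by the labels, and for 2 lower and 1 higher without that library. *Wwtr1*, the gene of the YAP relative TAZ, was called higher in the latter (log2 fold change 0.48, adjusted p = 0.0302), where it was at 24.22, 25.20 and 25.16 CPM in Ctrl replicates 1 to 3 and at 34.06 and 35.20 CPM in LSD1skm-/- libraries, with 37.65 CPM in the library left out. *Tead1*, a partner of YAP, had a log2 fold change of -0.36 by the labels (unadjusted p = 0.0364, adjusted p = 0.557) and of -0.41 without that library (unadjusted p = 0.0157, adjusted p = 0.135). For *Mrtfb*, a cofactor of SRF, the values were -0.59 (unadjusted p = 0.112, adjusted p = 0.596) and -0.77 (unadjusted p = 0.0168, adjusted p = 0.14). DESeq2 called both lower without that library (adjusted p = 0.0434 and 0.0252) and neither by the labels (0.392 and 0.524). Of 9 regeneration genes tested 4 were lower and 5 higher, and none was called, with 0 at an unadjusted p under 0.05 by the labels and 1 without that library. That gene was *Cdh15*, which was higher (log2 fold change 0.31, edgeR unadjusted p = 0.0225, adjusted p = 0.165). It was at 18.69 to 23.43 CPM in Ctrl and at 24.36 and 25.12 CPM in LSD1skm-/- libraries. *Myh3*, the embryonic myosin heavy chain of newly formed fibers, was low in every library, between 4.333 and 8.638 CPM.

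**Figure D4:**
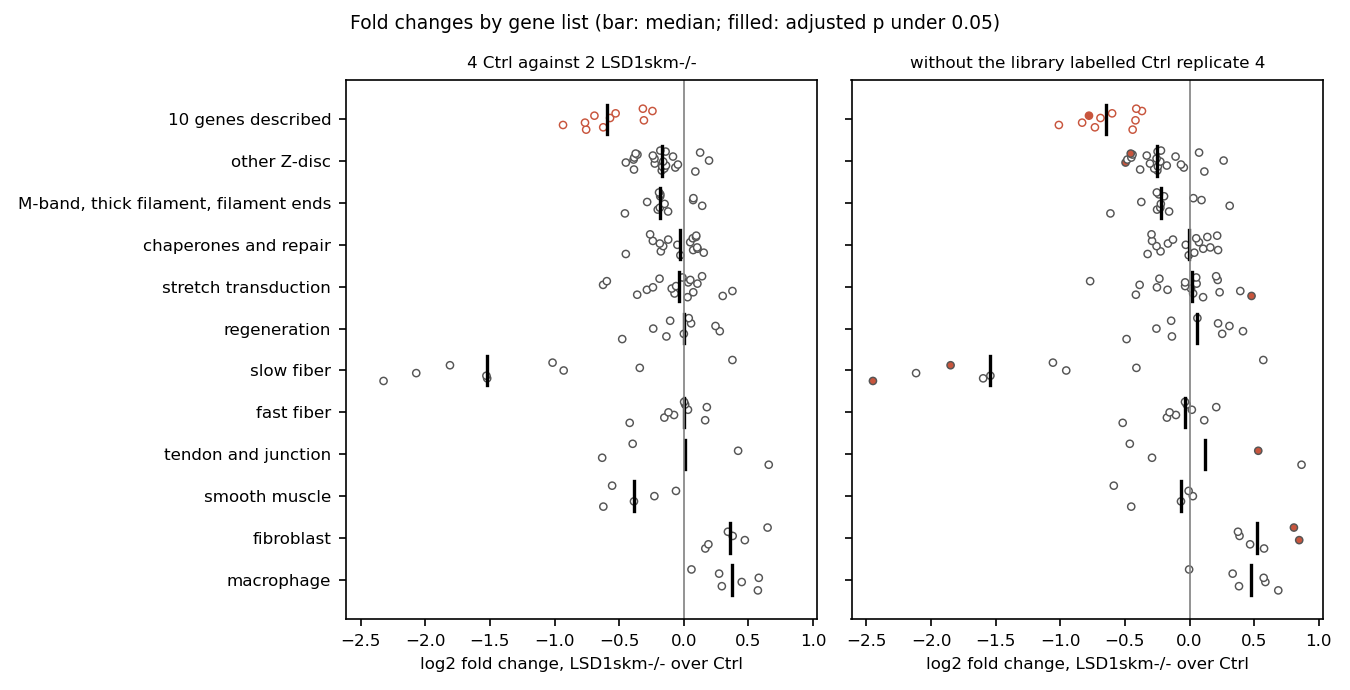
Log2 fold change of every tested gene of the 10 described and of 11 other lists, by the labels (left) and without the library labelled Ctrl replicate 4 (right), where vertical bars are list medians and filled points have an adjusted p under 0.05. The 10 genes lie left of 0 in both panels with medians of -0.60 and -0.64, between the slow-fiber genes (-1.52 and -1.54) and the other Z-disc genes (-0.17 and -0.25), and the adipocyte and cardiac lists are not drawn.

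Markers of other cells were counted in the same way. All 6 fibroblast genes were higher, with medians of 0.36 and 0.52, and 3 by the labels and 6 without the library labelled Ctrl replicate 4 had an unadjusted p under 0.05. Their summed level was 430.0 to 475.8 CPM in Ctrl replicates 1 to 3, 699.2 CPM in the library labelled Ctrl replicate 4 and 607.7 and 717.4 CPM in LSD1skm-/- libraries. Without that library edgeR called *Col3a1* and *Lum* higher (adjusted p = 0.00651 and 0.0296). DESeq2 called both in that comparison, and also *Col1a1*, *Col1a2* and *Dcn* (adjusted p = 0.0168, 0.0281 and 0.0364). Of 6 macrophage genes tested, 6 were higher by the labels and 5 without the library labelled Ctrl replicate 4, with medians of 0.37 and 0.48. They summed to 35.54 to 79.37 CPM in Ctrl and to 54.0 and 89.01 CPM in LSD1skm-/- libraries, so the sums overlapped. Of these genes, 0 were called by edgeR's adjusted p and 1 of 6 had an unadjusted p under 0.05 in both comparisons. Smooth muscle genes, which matter because *Csrp1* and *Flna* are abundant there, summed to 111.6 to 170.0 CPM in Ctrl and to 102.0 and 118.2 CPM in LSD1skm-/- libraries. Of 5 of them tested, 5 were lower by the labels and 4 without the library labelled Ctrl replicate 4 (medians -0.39 and -0.066), with 0 called by edgeR's adjusted p. Of these, 2 had an unadjusted p under 0.05 in both comparisons. They were *Myh11*, the smooth muscle myosin heavy chain (log2 fold changes -0.62 and -0.45, unadjusted p = 0.0181 and 0.0102), and *Lmod1*, a leiomodin (-0.55 and -0.59, unadjusted p = 0.0473 and 0.0471). DESeq2 called *Myh11* lower without that library (adjusted p = 0.0443). Of 4 tendon and junction genes tested, 2 were lower, and *Thbs4* was called higher without the library labelled Ctrl replicate 4 (adjusted p = 0.0263). The 4 adipocyte genes tested were lower, with median log2 fold changes of -4.94 by the labels and -4.54 without the library labelled Ctrl replicate 4. The list summed to 167.6 to 402.4 CPM in Ctrl and to 163.8 and 170.0 CPM in LSD1skm-/- libraries. Most of this was *Fabp4*, which capillary cells also express (165.8 to 354.2 CPM in Ctrl, 163.3 and 168.7 CPM in LSD1skm-/- libraries). *Adipoq*, the gene of adiponectin, stood at 12.79, 9.703, 0.7826 and 19.57 CPM in Ctrl replicates 1 to 4 and at 0.126 and 0.5583 CPM in LSD1skm-/- libraries, so Ctrl replicate 3 was also low. The lipid droplet genes *Plin1* and *Cidec* were high and low in the same libraries, at 0.2319 and 0.6377 CPM in Ctrl replicate 3, 4.369 to 15.32 CPM in the other Ctrl libraries and 0.06302 to 0.3988 CPM in LSD1skm-/- libraries. Levels under 1 CPM rest on few counts, so the sizes of the fold changes of these 3 genes are uncertain. The log2 fold changes of *Adipoq*, *Plin1* and *Cidec* were -4.91, -5.34 and -4.98 by the labels, each with an unadjusted p under 0.05 and an edgeR adjusted p of 0.557, and DESeq2 called all 3 lower (adjusted p = 0.0341, 0.0372 and 0.0153). They were -4.43, -4.75 and -4.64 without the library labelled Ctrl replicate 4 (edgeR adjusted p = 0.0899, 0.103 and 0.0843, DESeq2 adjusted p = 0.0185, 0.0198 and 0.00888). The 10 genes described are expressed mainly by muscle fibers, and the part of these other cells in their levels was not tested.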

How the data were processed

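RNA-seq libraries were analysed from the table of raw counts per gene that the authors deposited, which holds whole numbers and is not normalized. The labels name a stranded polyA library kit. Per the methods of the study, the authors sequenced 50-base single-end reads (bcl2fastq 2.20.0.422 in the submitters' processing notes), removed adapter dimers, kept reads aligned uniquely to mm10 and counted them per gene with HOMER. The methods name htseq-count for the mapping, and the strand setting is not given in the sources used here. Unique alignment leaves out reads shared by near-identical genes.

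The labels describe 8 libraries, 4 per group, of which 6 had counts, so the planned comparison of all became 4 against 2. Genes that averaged more than 50 counts per library entered edgeR's two-sided quasi-likelihood test (edgeR 4.0.16 under R 4.3.3, TMM scaling, genotype as sole covariate), and p-values were adjusted over 11364 genes by Benjamini-Hochberg. The standard error was the log2 fold change divided by the square root of F. CPM used TMM-scaled library sizes. The script was tested on simulated data. Ratios within a library were compared by exact permutation of libraries.

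The 10 genes and all lists were chosen with earlier results of these data known, and leaving out the library labelled Ctrl replicate 4 beside each result was chosen after *Kdm1a* was seen. The genes named were the 10, *Kdm1a*, at most 3 of the smallest p-values per list and markers of other cells. *Actn2*, *Tcap*, *Bag3*, *Myoz1*, *Ankrd23*, *Myh3*, *Tead1*, *Fhl1* and *Casq2* of the lists, the relatives *Csrp1*, *Csrp2* and *Flna*, the overlapping genes and the 9 ratios were added after values were seen. Alternatives were DESeq2 1.42.0, other scalings and filters, each library left out and a replicate block. Counting error is small for the 10 genes, which averaged 276.3 counts or more per library at depths of 30654828 to 41278769 counts. It is larger for genes near the floor, such as *Adipoq*, *Plin1* and *Cidec* in the LSD1skm-/- libraries. Exon positions came from GENCODE vM21 and promoters from RefSeq, both on GRCm38, the assembly of mm10.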

Additional observations from a re-analysis of the deposited data

Results flagged for a closer look

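Among the 4 Ctrl libraries, 1 value stood apart from the others for 2 of 24 results checked (*Kdm1a*, the 10 genes and 13 summed lists), judged by the gap to the nearest library as a share of the whole range on the log2 scale and Dixon's 95% critical value. Chance alone gives about 1 in 20. For *Kdm1a* the gap was 0.88, because the library labelled Ctrl replicate 4 was at 3.658 CPM and the others were at 21.96 to 28.06 CPM. For *Csrp3* the gap was 0.84, because Ctrl replicate 3 was at 130.9 CPM and the others were at 76.0 to 82.96 CPM. The log2 fold change of *Csrp3* was -0.93 with Ctrl replicate 3 and -0.71 without it.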

How the results depend on the processing

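The direction reversed in 1 of 140 gene values over 14 alternatives by the labels (*Mybph*, at 0.07 without LSD1skm-/- replicate 1) and in 0 of 110 over 11 alternatives, chosen after seeing the data, without the library labelled Ctrl replicate 4. The number of calls depended on the choice. By the labels, against 0 of the 10 genes and 0 genes in all with an adjusted p under 0.05, DESeq2 gave 1 and 46, no filter beyond 1 count 2 and 149, leaving out a library 0 to 1 and 0 to 612, and leaving out Ctrl replicates 3 and 4 together 0 and 504. Genes among the 10 with an unadjusted p under 0.05 numbered 5 by the labels, where 1011 of 11364 genes passed in either direction. They numbered 8 with no filter (2189 of 27041 genes) and 8 with Ctrl replicates 3 and 4 left out (1945 of 11364). With 1 Ctrl library left out they numbered 3 to 8 (586 to 2292 of 11364). Over the alternatives 0 to 1 of the 10 were higher. Without the library labelled Ctrl replicate 4, against 1 and 612 calls, DESeq2 gave 7 and 1056, no filter 8 and 1894, and leaving out a further library 0 to 3 and 143 to 504, with 5 to 8 of the 10 at an unadjusted p under 0.05. Medians of the 10 ranged from -0.64 to -0.48 by the labels and from -0.73 to -0.56 without that library. Scaling by library size alone moved the share of lower genes among unadjusted calls from 38.3% to 22.1% in the latter comparison and from 43.6% to 36.9% by the labels. With the replicate number as a block, 2 of the 10 (*Csrp3* and *Xirp1*) and 632 genes were called. Numbers 3 and 4 occur in Ctrl alone, so this fit compares replicates 1 and 2, whose deviations correlated at -0.23 and -0.03 between same-numbered libraries, which share only a number. With 2 LSD1skm-/- libraries their deviations mirror each other, giving 0.23 and 0.03 between differently numbered libraries, so these values cannot test a pairing. Where 1 LSD1skm-/- library was left out, the other was assumed to vary like the Ctrl libraries. The causes of these differences were not tested.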

Other observations

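*Nrap* is also a protein of the myotendinous junction, and the 4 junction and tendon genes tested were divided, with 2 lower and 2 higher in both comparisons. *Col22a1*, a collagen of the junction made by fibers, stood at 21.30, 22.92, 27.42 and 19.50 CPM in Ctrl replicates 1 to 4 and at 15.12 and 19.49 CPM in LSD1skm-/- libraries (log2 fold change -0.46, unadjusted p = 0.0222 without the library labelled Ctrl replicate 4). *Scx*, the transcription factor of tendon cells, stood at 3.704, 4.035, 5.565 and 7.133 CPM in Ctrl and at 6.90 and 9.252 CPM in LSD1skm-/- libraries (log2 fold change 0.87, unadjusted p = 0.00526 in the same comparison), and *Thbs4*, a matrix protein of tendon and muscle, at 41.26, 37.24, 37.33, 50.71, 57.09 and 54.42 CPM in the same order. The LSD1skm-/- libraries were lowest for *Col22a1*, though replicate 2 was level with the library labelled Ctrl replicate 4 (19.49 and 19.50 CPM). They were highest for *Thbs4*, and for *Scx* they overlapped with the library labelled Ctrl replicate 4. By the labels the log2 fold changes were -0.395 for *Col22a1*, 0.66 for *Scx* and 0.42 for *Thbs4*, each with an edgeR adjusted p of 0.557.

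*Synpo2*, which encodes the myopodin of the Z-disc that takes part in filamin clearance with *Bag3*, stood at 674.8, 626.4 and 684.4 CPM in Ctrl replicates 1 to 3, at 494.4 CPM in the library labelled Ctrl replicate 4 and at 441.2 and 506.4 CPM in LSD1skm-/- libraries, and had a log2 fold change of -0.39 by the labels and -0.48 without that library (adjusted p = 0.557 and 0.0537 by edgeR's quasi-likelihood test). DESeq2 called *Synpo2* lower without that library (adjusted p = 0.000763) and not by the labels (0.372).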
